A study of Mus musculus with 6 samples.

Results

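The secreted Wnt antagonists described here are 9 genes: the secreted Frizzled-related proteins Sfrp1, Sfrp2, Frzb (also called Sfrp3), Sfrp4 and Sfrp5, the Wnt inhibitory factor Wif1, and the Dickkopf genes Dkk1, Dkk2 and Dkk3. The genes were given as a list, and each probe set whose annotation names exactly 1 of them was taken. This gave 14 of 22626 tested probe sets and 9 of 12393 genes, and none of the 9 was missing from the array. The genes were chosen by their role, with the log2 differences between mutant and wild-type pools in these same data already known, those of Sfrp1 and Dkk1 among them. The values below are therefore a description of the 9 genes, and their p-values carry no independent evidence.

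Wnt proteins are secreted signals that bind Frizzled receptors together with the co-receptors Lrp5 and Lrp6. Secreted Frizzled-related proteins and Wif1 bind Wnt proteins outside the cell, whereas Dkk1 binds Lrp5 and Lrp6 and so blocks the branch that works through beta-catenin. In the mouse, Wnt signalling takes part in the segmentation clock of the presomitic mesoderm and in the patterning of somites, Dkk1 is one of its oscillating genes, and embryos without Sfrp1 and Sfrp2 have shortened and irregularly segmented trunks.

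The tissue came from mouse embryos of the C57BL/6 strain at 9.5 days post coitum. The Dll3 mutant embryos carried the Dll3neo allele (also named tm1Rbe) on both chromosomes, and the wild-type embryos carried 2 unaltered copies of Dll3, a divergent Notch ligand of the segmentation clock. Embryos were cut at the otic placode and at the border between the last somite and the presomitic mesoderm, which lay beyond the cut. Values below are thus not meant as readings of the presomitic mesoderm. Heart and endoderm were taken off, while neural tube and other tissues of somite level stayed in. RNA of 3 mutant pools and 3 wild-type pools was hybridised to 6 Affymetrix MOE430A arrays, 1 pool on each. The number of embryos in a pool was not given.

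Values in the deposited table are linear ratios, each to a level particular to its probe set, with a median over the 6 pools of 1 in 93.4% of rows. A ratio keeps no signal level. Whether a gene was well above background, how levels of different genes compare, and whether the defining somite markers were present could not be read from the table. In pooled tissue, fewer cells of a type and less RNA per cell cannot be told apart.

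Of the 9 genes, 6 have a promoter in the RefSeq table used here (mouse build GRCm38.p6). The 250 bases before the start site are shown for Dkk1, Frzb and Sfrp5, the genes among these 6 with a probe set in which the mutant and wild-type pools did not overlap. Capitals mark matches to the TCF/LEF core (CTTTG followed by AA or AT, or by TA or TT) or to the core bound by the Notch effector RBPJ (TGGGAA), both searched on both strands. The sequences read 5′ to 3′ on the strand of the gene, which is the minus strand for all 3.
Dkk1, chr19:30549497-30549746, minus strand: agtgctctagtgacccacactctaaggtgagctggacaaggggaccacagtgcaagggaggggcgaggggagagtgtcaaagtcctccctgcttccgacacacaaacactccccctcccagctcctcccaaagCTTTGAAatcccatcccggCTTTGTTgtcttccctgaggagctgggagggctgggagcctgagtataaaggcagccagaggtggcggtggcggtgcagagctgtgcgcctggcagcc
Frzb, chr2:80447397-80447646, minus strand: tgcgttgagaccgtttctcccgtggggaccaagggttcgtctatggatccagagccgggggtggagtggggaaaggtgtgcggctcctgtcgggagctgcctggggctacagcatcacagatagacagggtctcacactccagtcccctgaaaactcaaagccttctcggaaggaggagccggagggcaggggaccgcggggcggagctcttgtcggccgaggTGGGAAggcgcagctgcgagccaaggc
Sfrp5, chr19:42202253-42202502, minus strand: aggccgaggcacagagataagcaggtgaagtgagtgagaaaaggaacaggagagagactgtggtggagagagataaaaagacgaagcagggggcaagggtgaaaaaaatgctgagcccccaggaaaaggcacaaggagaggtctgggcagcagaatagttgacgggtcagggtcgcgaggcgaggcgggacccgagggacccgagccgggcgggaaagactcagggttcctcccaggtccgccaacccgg

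The Dkk1 window held 2 TCF/LEF matches, which start 117 and 98 bases before the start site. Of 32544 distinct promoter windows of the same length, 14.9% held such a match and 1.43% held 2 or more. The Frzb window held 1 RBPJ match, 27 bases before the start site, and 21.6% of all windows held at least 1. The windows of Sfrp2, Sfrp5, Wif1 and Dkk2 held neither motif. A match is a run of letters and not a measured binding site. Both motifs were chosen after the promoter sequences had been looked at, so the shares of all windows are a description and no test.

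Per the series design, the study looked for transcripts of the somite level whose amounts depend on Dll3. Among the 9 antagonists the values went both ways. Dkk1 and Sfrp1 were about 1.15-fold higher in the mutant pools, Sfrp2 and Frzb were higher by less, Sfrp5, Sfrp4 and Dkk2 were lower, and Wif1 and Dkk3 lay near 0. In limma no probe set of the 9 genes passed an adjusted p of 0.05, and neither did any of the 22626 probe sets tested (0%). By gene, 5 were higher and 4 lower, with a median log2 difference of 0.00075, beside 0.0035 over all 12393 genes. The median size of the difference without its sign was 0.12 on the log2 scale in the 9 genes and 0.054 over all genes. As the genes were listed with these differences known, nothing is read from this comparison.

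**Figure D1:**
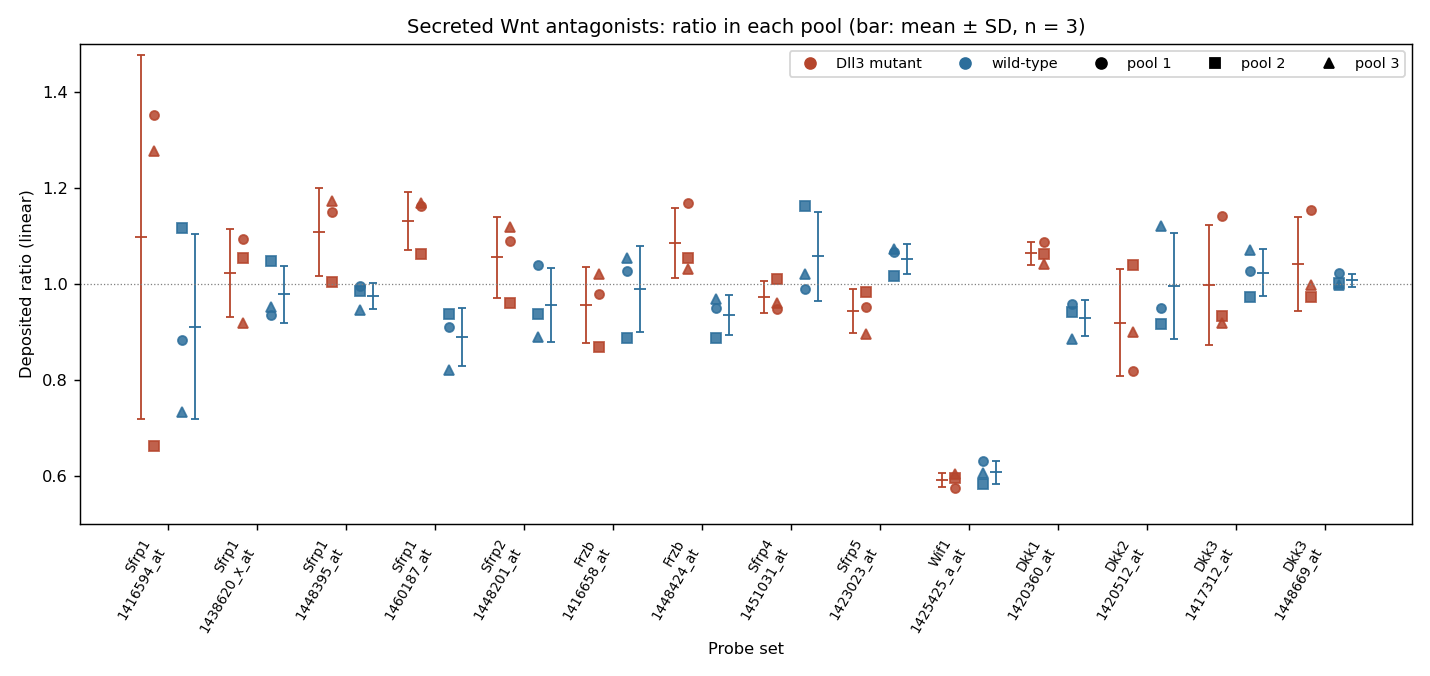
Deposited linear ratio (vertical axis) of the 14 probe sets (horizontal axis) in the 3 Dll3 mutant pools (red, left) and the 3 wild-type pools (blue, right), with symbols for the pool number and bars for the mean ± SD. The mutant pools all lie above the wild-type pools in 2 probe sets of Sfrp1, 1 of Frzb and that of Dkk1, and all below them in that of Sfrp5.

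The groups did not overlap in 5 of the 14 probe sets, with the mutant pools above in 4 and below in 1. Over all probe sets the groups did not overlap in 7.46%, with the mutant pools above in 4.07% and below in 3.39%. An unadjusted limma p under 0.05 was found for 3 of the 14 probe sets, beside 2.63% of all probe sets, and for 1 of the 9 genes, Dkk1, beside 2.67% of all genes. Since this contrast was known when the genes were listed, nothing is read from these shares.

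Sfrp1, which binds Wnt proteins through a cysteine-rich domain like that of Frizzled receptors, was measured by 4 probe sets, and all 4 were higher in the mutant mean, though the sign of 1 of them, 1416594_at, changed with the setting. Probe set 1460187_at had ratios of 1.163, 1.062 and 1.168 in the mutant pools, against 0.91, 0.938 and 0.821 in the wild-type pools. Every mutant pool lay above every wild-type pool, and the means differed by 0.35 on the log2 scale (SE 0.091, 95% interval 0.15 to 0.55). This was rank 16 of all probe sets by limma p, at an adjusted p of 0.99996, for a gene listed with its difference known.

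Probe set 1448395_at of Sfrp1 had ratios of 1.151, 1.004 and 1.172 in the mutant pools, against 0.996, 0.986 and 0.945 in the wild-type pools. The groups again did not overlap, although mutant replicate 2 lay just above wild-type replicate 1. On the log2 scale the means differed by 0.18 (SE 0.091, 95% interval -0.02 to 0.38).

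The other two probe sets of Sfrp1 did not part the groups. Probe set 1438620_x_at, a kind that can hybridise with other transcripts, had 1.094, 1.055 and 0.919 in the mutant pools, against 0.935, 1.047 and 0.953 in the wild-type pools, a log2 difference of 0.06 (SE 0.097). Probe set 1416594_at had 1.353, 0.663 and 1.277 in the mutant pools, against 0.884, 1.116 and 0.734 in the wild-type pools. Mutant replicate 2 was the lowest of the 6 pools there, while mutant replicates 1 and 3 were the highest. Its log2 difference was 0.22 with an SE of 0.239. With a single pool left out it ran from 0.04 (without mutant replicate 1) to 0.55 (without mutant replicate 2), and its sign changed with array weights (-0.08) and without both pools numbered 3 (-0.07). Its SD within groups was larger than in 99.9% of probe sets. It is annotated to the same sequence record as 1448395_at and 1460187_at.

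Averaged over its 4 probe sets, Sfrp1 had ratios of 1.19, 0.929 and 1.13 in the mutant pools, against 0.930, 1.02 and 0.858 in the wild-type pools. The groups overlapped through mutant replicate 2, and the means differed by 0.20 on the log2 scale (SE 0.106, 95% interval -0.03 to 0.44). Without probe set 1416594_at, an alternative chosen after its spread was seen, the ratios were 1.14, 1.04 and 1.08 in the mutant pools, against 0.946, 0.989 and 0.904 in the wild-type pools. The difference was then also 0.20 (SE 0.076, 95% interval 0.03 to 0.36), and the groups did not overlap. The size of the difference was about the same with and without this probe set. As it was left out for its spread within groups, the narrower interval and the separate groups are a description and carry no support.

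Sfrp2, which shares its function with Sfrp1 in the mouse trunk, had 1.09, 0.96 and 1.118 in the mutant pools, against 1.04, 0.937 and 0.889 in the wild-type pools. Mutant replicates 1 and 3 were highest, as they were for Sfrp1, and mutant replicate 2 lay within the wild-type range. On the log2 scale the means differed by 0.14 (SE 0.098, 95% interval -0.07 to 0.36). With a sex score as a covariate it was 0.013 (SE 0.180). This score parts the groups, so it cannot be fully told apart from genotype here. The sex score is the log2 Xist value minus the mean of the Y-linked genes Eif2s3y, Kdm5d and Uty, and it was 0.04, 0.81 and 0.73 in the mutant pools, against -0.08, -1.48 and -1.73 in the wild-type pools, without overlap.

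Frzb, a secreted Wnt-binding protein of skeletal precursors, was measured by 2 probe sets, whose differences had opposite signs in the reported fit. Probe set 1448424_at had 1.169, 1.055 and 1.032 in the mutant pools, against 0.951, 0.888 and 0.968 in the wild-type pools, without overlap and with a log2 difference of 0.21 (SE 0.089, 95% interval 0.02 to 0.41). Probe set 1416658_at had 0.979, 0.868 and 1.021 in the mutant pools, against 1.028, 0.888 and 1.054 in the wild-type pools. These values overlapped, with a log2 difference of -0.05 (SE 0.101). That sign rests on 1 pool, since without mutant replicate 2 the difference was 0.018. Both probe sets are annotated to the same sequence record. Their mean was 0.08 (SE 0.082), and 0.025 without wild-type replicate 2.

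Sfrp4 and Sfrp5, each with 1 probe set, were lower in the mutant mean. Sfrp5, known in the mouse as a Wnt-binding factor of the foregut endoderm, had 0.952, 0.984 and 0.895 in the mutant pools, against 1.067, 1.016 and 1.073 in the wild-type pools. Every mutant pool lay below every wild-type pool, at a log2 difference of -0.16 (SE 0.085, 95% interval -0.34 to 0.03). Sfrp4 had 0.947, 1.01 and 0.961 in the mutant pools, against 0.99, 1.162 and 1.02 in the wild-type pools, with overlap and a log2 difference of -0.12 (SE 0.092). Without wild-type replicate 2, the highest pool, it was -0.05, as it was with the sex score as a covariate (SE 0.174). Endoderm was taken off in the dissection, and the mean log2 value of 10 endoderm markers ran from -0.093 to 0.114 in the mutant pools, against -0.119 to 0.171 in the wild-type pools. The endoderm values of the groups overlapped, and their part in the Sfrp5 difference was not tested.

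The family of 5 secreted Frizzled-related proteins thus held 3 genes with a higher and 2 with a lower mutant mean. The mean log2 value of the family was 0.06, -0.05 and 0.03 in the mutant pools, against 0.003, 0.0004 and -0.05 in the wild-type pools. Mutant replicate 2 was close to wild-type replicate 3, the lowest pool, so the family mean did not part the groups.

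**Figure D2:**
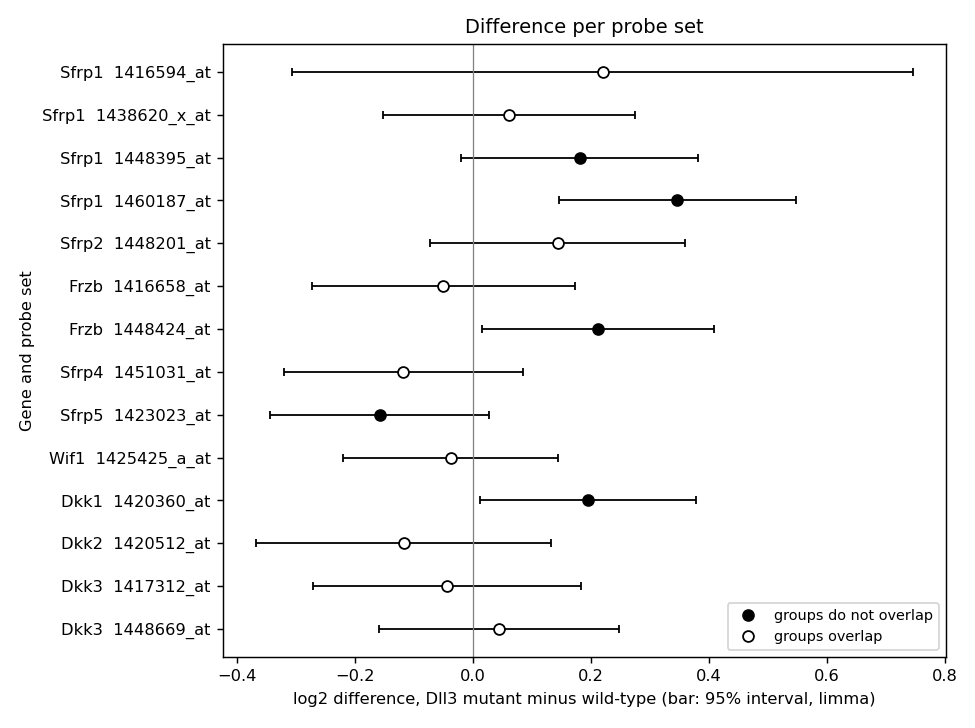
The log2 difference, mutant minus wild-type (horizontal axis), of each of the 14 probe sets (rows), with 95% intervals from limma. Filled points mark the 5 probe sets whose groups did not overlap, and the widest interval is that of Sfrp1 probe set 1416594_at, from -0.31 to 0.75.

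Wif1, which binds Wnt proteins through a domain of its own kind, had 0.576, 0.595 and 0.605 in the mutant pools, against 0.632, 0.584 and 0.607 in the wild-type pools. The values overlapped, at a log2 difference of -0.04 (SE 0.083, 95% interval -0.22 to 0.15). All 6 pools lay far below 1, so the reference of this probe set is not the median of these pools. Wif1 and Dkk2 are the members with a row median below 1, as are 1497 rows of the whole table, and what sets such rows apart was not tested.

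Dkk1, the antagonist that binds Lrp5 and Lrp6, had 1.088, 1.062 and 1.041 in the mutant pools, against 0.959, 0.942 and 0.886 in the wild-type pools. The groups did not overlap and the spread within them was small, with an SD of 0.024 in the mutant and 0.038 in the wild-type pools. On the log2 scale the means differed by 0.20 (SE 0.083, 95% interval 0.01 to 0.38). Its SD within groups was at percentile 4.99 of all probe sets, and the SE that limma gives is drawn up toward the common spread. Taking the sex score into the fit gave 0.15 (SE 0.160). The TCF/LEF matches printed above lie in the promoter of this gene, and no binding was measured.

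Dkk2, which can act as an antagonist or an agonist depending on the receptors present, had 0.818, 1.039 and 0.901 in the mutant pools, against 0.951, 0.916 and 1.121 in the wild-type pools. Mutant replicate 2 lay above 2 of the 3 wild-type pools, and the means differed by -0.12 on the log2 scale (SE 0.114, 95% interval -0.37 to 0.13). Dkk3, a divergent member of the family, was measured by 2 probe sets of the same sequence record. Probe set 1417312_at had 1.142, 0.933 and 0.919 in the mutant pools, against 1.028, 0.972 and 1.071 in the wild-type pools. Probe set 1448669_at had 1.155, 0.973 and 0.997 in the mutant pools, against 1.022, 1.002 and 0.998 in the wild-type pools. Both were highest in mutant replicate 1 and both overlapped, at log2 differences of -0.04 (SE 0.103) and 0.04 (SE 0.092). The Dickkopf genes thus held 1 gene with separate groups, 1 lower with overlap and 1 near 0.

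How far probe sets of a gene went together was described by Pearson's r over the 6 pools, which rests on 6 points in 2 groups and is given without a test. For Sfrp1 it was 0.91 between 1448395_at and 1460187_at, 0.78 and 0.59 between these and 1416594_at, and 0.07 to 0.32 between 1438620_x_at and the other three. It was 0.80 for the pair of Dkk3 and 0.05 for the pair of Frzb. Over 12821 pairs of probe sets of 1 gene in the whole table the median r was 0.23, with quartiles of -0.21 and 0.58. Among genes with 4 probe sets, 17.0% had the same sign of difference in all 4, as Sfrp1 had in the reported fit but not with array weights or without both pools numbered 3, and 53.4% of genes with 2 probe sets had the same sign in both.

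The genes with the pattern most like that of Sfrp1 over the 6 pools, by Pearson's r of the gene value, were Elapor1 (0.98), Asb6 (0.98), Socs7 (0.97), Echdc3 (0.97) and Myo5c (0.97). Those most like Dkk1 were Gps2 (0.99), Tcea2 (0.98), Rhoq (0.98), Tmem134 (0.97) and Wwp2 (0.96). These are the top 5 of 12392 genes, of which 16 had an r of 0.95 or more with Sfrp1 and 13 with Dkk1. None of these is one of the other antagonists, and r between Sfrp1 and Dkk1 was 0.71.

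The rest of the Wnt pathway was followed through 98 other measured genes of 112 listed. Of these, 58 lay above 0 and 40 below it, at a median of 0.02. Over all 12393 genes 6427 lay above 0 and 5966 below it, at a median of 0.0035. None of the 98 passed the adjusted threshold in limma, where 0% of the 12393 genes did. An unadjusted p under 0.05 was found for 2 of the 98, beside 2.67% of all genes. These 2 were Shisa2 (0.22, SE 0.087), a relative of the Xenopus protein that holds Frizzled receptors inside the cell, and Dkkl1 (0.21, SE 0.091), a Dickkopf-like gene. The groups overlapped in Shisa2 and did not in Dkkl1. Both belong to the 11 measured genes of other inhibitors, of which 8 were higher and 3 lower. That list was written with earlier results of these data known, so nothing is read from their place in it. Rnf43, a ubiquitin ligase that removes Frizzled receptors, was at 0.18 (SE 0.089). The lowest of that list were Dkk4 (-0.09), Cer1 (-0.07) and Apcdd1 (-0.03).

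**Figure D3:**
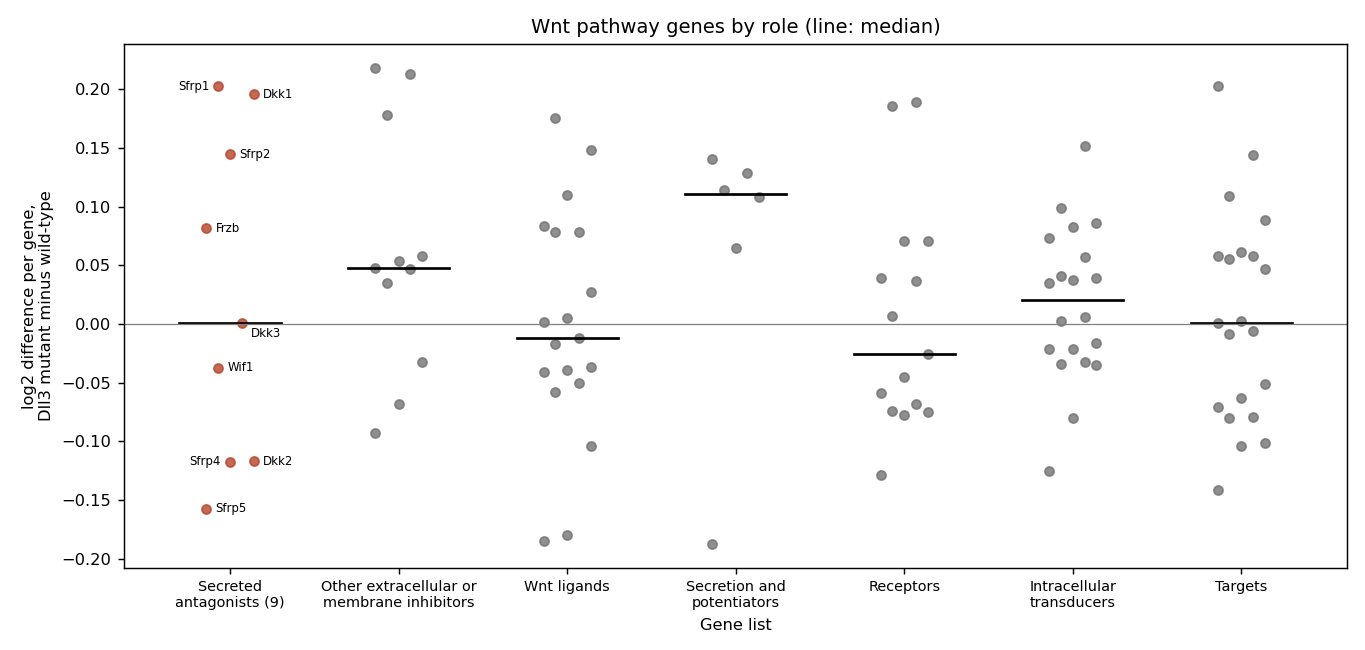
The log2 difference per gene, mutant minus wild-type (vertical axis), of the 9 antagonists (red, named) and of other Wnt pathway genes by role (grey), with a line at each median. The 9 genes run from -0.16 to 0.20, a range that the other groups largely share.

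The co-receptors that Dkk1 binds were at -0.07 (Lrp5, SE 0.082) and -0.08 (Lrp6, SE 0.112), and Kremen1, a receptor through which Dkk1 can remove Lrp6 from the surface, was at 0.10 (SE 0.163), all with groups that overlapped. Of 19 Wnt ligands 9 were higher and 10 lower, from -0.18 for Wnt16 and Wnt10a and -0.10 for Wnt9b to 0.11 for Wnt5b, 0.15 for Wnt1 and 0.18 for Wnt7b. Wnt3a was at -0.04 (SE 0.083) in this tissue, in which the neural tube stayed and from which the presomitic mesoderm was cut off. Of 15 receptors 7 were higher, with Fzd5 at 0.19, Ptk7 at 0.19 and Fzd2 at 0.07, and 8 lower, with Ror1 at -0.13, Lrp6 at -0.08 and Fzd7 at -0.08.

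Transcripts of Wnt target genes had 11 higher and 10 lower members and a median of 0.0012. The feedback inhibitor genes Nkd1 and Axin2 were at 0.20 (SE 0.101) and 0.11 (SE 0.098), and Fgf8 was at 0.14 (SE 0.119). Sp5 was at 0.0012 (SE 0.109), while Tbx6, Msgn1 and Cdx2, regulators of posterior mesoderm, were at -0.14, -0.10 and -0.10. Of 20 intracellular transducers 12 were higher, with the beta-catenin inhibitor gene Ctnnbip1 at 0.15, Cby1 at 0.10 and Gsk3a at 0.09, and 8 lower, with Bcl9l at -0.13, Lef1 at -0.08 and Ctnnb1 at -0.04. Of 6 genes of Wnt secretion and potentiation 5 were higher, with Wls, Lgr6 and Rspo2 at 0.14, 0.13 and 0.11, and Lgr5 was at -0.19 (SE 0.087). Of 11 planar polarity genes 9 were higher and 2 lower, with Ptk7 at 0.19, Celsr1 at 0.14 and Dact1 at 0.09, and with Fzd6 at -0.06.

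Markers of other cells in the tissue were followed in the same pools, and none of them passed the adjusted threshold. The mean log2 value of 11 myotome markers was 0.019 to 0.239 in the mutant pools, against -0.124 to -0.018 in the wild-type pools. Of these, 7 were higher, among them Acta1 (0.50) and Tnnt1 (0.46). The 4 lower ones were Myf5 (-0.18), Myf6 (-0.08), Des (-0.05) and Chrna1 (-0.03). The mean log2 value of 9 erythroid markers was -0.033 to 0.212 in the mutant pools, against -0.195 to -0.048 in the wild-type pools, with 8 of 9 higher. The groups did not overlap in the myotome and erythroid means, in which mutant replicate 2 was the highest pool. For 10 cardiac markers, with 6 higher and 4 lower, it was -0.047 to 0.033 in the mutant pools, against -0.102 to -0.023 in the wild-type pools, with overlap. The mean of 11 somite markers was -0.181 to 0.057 in the mutant pools, against -0.019 to 0.183 in the wild-type pools, and overlapped, with 3 of 11 higher and 8 lower at a median log2 difference of -0.14. The lowest of them, Uncx, a homeobox gene of the posterior part of each somite, had ratios of 0.694, 0.536 and 0.76 in the mutant pools, against 1.24, 1.437 and 1.263 in the wild-type pools. Its log2 difference of -0.998 (SE 0.124, adjusted limma p 0.116) was the lowest of all 12393 genes. The mean of 15 neural tube markers was -0.164 to 0.147 in the mutant pools, against -0.034 to 0.017 in the wild-type pools. Lateral plate, surface ectoderm and neural crest means overlapped as well. The part of cell makeup in the values of the 9 genes was not tested.

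The differences of the 9 genes were recomputed under up to 17 other settings. In 7 of the 9 genes the sign was the same in all of them. Dkk1 kept the narrowest range, 0.15 to 0.22, and Sfrp1 ranged from 0.08 with array weights to 0.31 without mutant replicate 2. Sfrp2 ranged from 0.013 to 0.21 and Sfrp5 from -0.19 to -0.11. Frzb ranged from 0.025 without wild-type replicate 2 to 0.21 with its most variable probe set, Sfrp4 from -0.16 without wild-type replicate 1 to -0.05, and Wif1 from -0.13 with the sex score to -0.009 without wild-type replicate 1. Dkk2, at -0.12 as reported, was at -0.03 without wild-type replicate 3, -0.04 without mutant replicate 1, -0.21 without mutant replicate 2 and 0.02 with array weights. Dkk3 changed sign in 6 of 17, with -0.09 without mutant replicate 1 and 0.10 with the sex score at the ends.

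**Figure D4:**
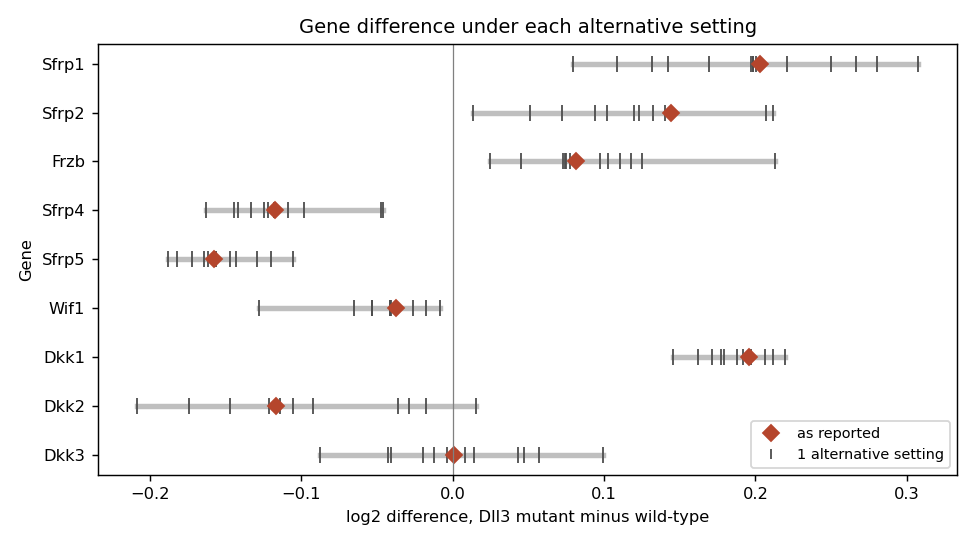
The log2 difference per gene, mutant minus wild-type (horizontal axis), of the 9 genes (rows) as reported (red diamonds) and under each alternative setting (ticks), with a grey bar over their range. Dkk1 stays between 0.15 and 0.22, while the ticks of Dkk2 and Dkk3 lie on both sides of 0.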

How the data were processed

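RNA of 3 Dll3 mutant and 3 wild-type pools was measured on 6 arrays. The authors deposited 1 table of 22690 probe sets whose values are linear ratios, a reading taken from the values (0.266 to 2.498). Per the submitters' processing notes the tools were RMA and MAS5, with no role stated, and how arrays were scaled to each other is unknown. After 64 control probe sets were left out, log2 of the ratio, without a pseudocount, was tested for genotype with limma (version 3.58.1, under R 4.3.3; eBayes without a trend, two-sided, Benjamini-Hochberg adjusted over all rows). A single gene symbol was annotated to 20380 probe sets, several to 691, and 1555 had none. A gene value is the mean log2 over its probe sets. Values of the 9 genes come from the fit per probe set unless they average several, and those of all other genes from the fit per gene. Precision is limited by the 6 arrays, with a median SE of 0.092 for the 14 probe sets and 0.099 for all. The series design calls the pools biological replicates.

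The 9 genes, the pathway and marker lists and the tests were chosen with earlier results of these data known. Named beside the 9 genes are, per pathway list, those of largest difference in each direction, Lrp5, Lrp6, Kremen1, Axin2, Nkd1 and Sp5, the 5 genes most like Sfrp1 and Dkk1, and up to 2 marker genes per list. For the myotome the 4 lower markers are named as well. Wnt3a and single genes with an unadjusted p under 0.05 were named for their role or after their values were seen. Settings also tried were a block for the replicate number, a variance trend, quantile normalization, array weights, centring on the median, each pool or both pools numbered 3 left out, _x_at and _s_at probe sets or rows with a median below 1 left out, the sex score as a covariate and the most variable probe set per gene. Sfrp1 without its probe set of largest spread was added after seeing the data.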

Additional observations from a re-analysis of the deposited data

How the results depend on the processing

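The counts of antagonist probe sets, antagonist genes and other Wnt pathway genes past the adjusted threshold were 0 in limma, and 0 under each of their alternatives. Those at an unadjusted p under 0.05 were 3 of 14 probe sets, with 0 to 3 over the alternatives, and 1 of 9 genes, with 0 to 2. The smallest adjusted p over the alternatives was 0.493 for a gene (Dkk1) and 0.631 for a probe set. The median log2 difference of the 9 genes, 0.00075, was 0.082 when rows with a median below 1 were left out, since Wif1 and Dkk2 then drop out, and -0.020 to 0.047 with each pool left out. Leaving a pool out moved the count of all probe sets with an unadjusted p under 0.05 from 595 to between 319 (wild-type replicate 2) and 1229 (wild-type replicate 3). Deviations from the group means correlated at 0.37, -0.02 and 0.37 over all probe sets between pools numbered 1, 2 and 3. Between pools of different number the correlations were -0.43 to 0.20. Pools numbered 1 and pools numbered 3 thus deviated together more than any of different number, and pools numbered 2 did not. As this did not hold in every pair, the reported fit did not take the numbers as pairs and leaves this shared deviation in its spread. Over the 14 antagonist probe sets alone the correlations were 0.05, -0.61 and -0.61 between pools numbered 1, 2 and 3. Between pools of different number they ran there from -0.62 to 0.76. With the replicate block the count of antagonist probe sets past the threshold stayed 0, and that of all probe sets with an unadjusted p under 0.05 was 1072. The count of all probe sets past the threshold, 0 as reported, was 1 with the replicate block, 1 with array weights and 1 without wild-type replicate 1. With array weights the count at an unadjusted p under 0.05 was 1770 and with the sex score 267, and the cause of these shifts was not tested. Ratios keep no signal over background, so a filter on dim probe sets could not be made.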
